A study of Mus musculus with 52 samples.

Results

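The cytosolic heat shock chaperones examined here are 10 genes, taken by name from the 39144 genes of the mouse tables: Hsph1, Hspa8, Hsp90aa1, Hsp90ab1, Dnajb1, Dnaja1, Hspa1a, Hspa1b, Hspb1 and Bag3. All 10 were listed in testes and in each of the other tissues. In heart, liver, prostate and spleen of mice lacking Tug1, a long noncoding RNA gene, all 10 had a higher mean level than in wild type. They ran from 103% of the wild-type mean for Dnajb1 in spleen to 416% for Hspa1a in liver, where that gene was at 0.290 TPM in wild type. Of all genes of at least 1 TPM in either genotype, 74.8% were higher in heart, 52.7% in liver, 58.8% in prostate and 29.8% in spleen. In testes, brain, eyes and embryonic fibroblasts the 10 genes lay on both sides of the wild-type level, between 74.2% for Hspa1a in fibroblasts and 161% for Hspb1 in testes, the one value past 1.5-fold. The genes were picked with the differences between genotypes in these same tables already seen, so every value below is a description and none carries a test.

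Cytosolic chaperones keep newly made and damaged proteins from aggregating and help them to fold. Proteins of the Hsp70 class bind exposed hydrophobic stretches in a cycle driven by ATP. J-domain proteins bring clients to Hsp70 and start the ATP hydrolysis, and nucleotide exchange factors release ADP so that the client can leave. Hsp90 acts later, on kinases, steroid hormone receptors and other clients that are nearly folded, while small heat shock proteins hold unfolded clients without using ATP. Heat and other protein-damaging stress release the transcription factor HSF1, which binds inverted repeats of the letters GAA in the promoters of many of these genes.

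RNA came from male mice of a mixed C57BL/6J/129S6 background. Wild-type animals were set against Tug1-/- animals carrying the allele Tug1_tm1.1Vlcg, in which a lacZ cassette stands in place of the gene body while the promoter and the first exon remain, and the labels of the Tug1-/- testes also name Neo and LacZ. The means behind the values cover 4 wild-type, 4 Tug1-/- and 3 rescue testes, 3 wild-type and 2 Tug1-/- prostates, and 3 samples of each genotype for eyes, heart, liver, spleen and MEFs, which are fibroblasts grown from embryos and used at passage 2. Rescue mice had the Tug1-/- genotype plus the transgenes tg(Tug1) and CAG-rtTA3, the second a doxycycline-dependent activator under a broadly active promoter, and were fed doxycycline. A brain comparison stands in the same table, from libraries outside the samples listed, whose number is not given here. Ages were not in the labels.

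Expression was deposited as the mean of each group in TPM, the relative abundance of a transcript after its length is taken into account. No values of single samples were at hand, and the authors' own standard errors and p-values, which belong to their comparisons, were not used. Whether a difference exceeds the spread between replicates was therefore not tested, and the depth of a sample is not known here. Tug1 itself stood at between 0.0825% and 0.512% of its wild-type mean in 7 tissues of Tug1-/- mice and at 2.21% in testes, and the rescue testes held 4.0%. Defining genes of each tissue were present, among them Alb at 97035 TPM in wild-type liver and Pbsn at 65995 TPM in wild-type prostate, where Spink1 and Sbp were low at 5.39 and 1.64 TPM. The median log2 ratio of all genes that passed a filter of 1 TPM in either genotype was -0.11 in eyes, 0.10 in heart and -0.11 in spleen, and lay within 0.05 of 0 in the others. All samples are bulk RNA, in which fewer cells of a type and less RNA per cell cannot be told apart.

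In build GRCm38 the genes lie on 7 chromosomes. Hspa1b (chr17:34956436-34959238), Hspa1a (chr17:34969190-34972156) and Hsp90ab1 (chr17:45567775-45573271) are on the minus strand of chromosome 17. Hspb1 (chr5:135887919-135889563, plus strand) and Hsph1 (chr5:149614287-149636376, minus strand) share chromosome 5. Dnaja1 (chr4:40722150-40737149), Bag3 (chr7:128523616-128546981), Dnajb1 (chr8:83608193-83612653) and Hspa8 (chr9:40800984-40810087) are on plus strands, and Hsp90aa1 (chr12:110690605-110702728) is on the minus strand.

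Promoter sequences of 7 of the 10 genes were found in RefSeq for build GRCm38.p6, 11 promoters in all, each with 250 bases before and 50 bases after a transcription start. Hspa8, Hsp90aa1 and Hsp90ab1 were not among them. The letters searched were 2 facing repeats, GAANNTTC or TTCNNGAA, and 3 repeats, GAANNTTCNNGAA or TTCNNGAANNTTC. Each of these pairs of patterns reads the same on both strands, and a match to 3 repeats holds overlapping matches to 2. The promoters of the 3 genes with the widest genotype ratios in at least 1 organ, and of the small heat shock protein gene that stood apart in testes, are given 5′ to 3′ in lower case with matches in capitals.

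Hsph1, chr5:149636287-149636586, minus strand: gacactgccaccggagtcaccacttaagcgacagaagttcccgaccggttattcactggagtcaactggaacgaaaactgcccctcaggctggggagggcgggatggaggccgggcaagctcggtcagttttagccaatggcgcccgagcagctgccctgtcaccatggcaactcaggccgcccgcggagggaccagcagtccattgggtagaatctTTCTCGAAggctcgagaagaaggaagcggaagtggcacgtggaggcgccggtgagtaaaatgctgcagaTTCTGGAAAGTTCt

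Hspa1a, chr17:34972107-34972406, minus strand: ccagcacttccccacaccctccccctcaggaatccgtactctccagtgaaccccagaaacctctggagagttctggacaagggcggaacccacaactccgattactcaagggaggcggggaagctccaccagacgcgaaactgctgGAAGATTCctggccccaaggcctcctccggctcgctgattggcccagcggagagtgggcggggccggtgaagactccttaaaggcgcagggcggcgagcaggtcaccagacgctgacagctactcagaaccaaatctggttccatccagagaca

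Hspa1b, chr17:34959189-34959488, minus strand: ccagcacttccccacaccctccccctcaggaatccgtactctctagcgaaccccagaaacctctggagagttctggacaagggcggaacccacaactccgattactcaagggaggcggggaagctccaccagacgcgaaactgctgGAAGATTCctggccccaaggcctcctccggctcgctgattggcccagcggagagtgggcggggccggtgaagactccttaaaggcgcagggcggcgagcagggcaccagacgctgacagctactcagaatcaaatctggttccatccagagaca

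Hspb1, chr5:135887669-135887968, plus strand: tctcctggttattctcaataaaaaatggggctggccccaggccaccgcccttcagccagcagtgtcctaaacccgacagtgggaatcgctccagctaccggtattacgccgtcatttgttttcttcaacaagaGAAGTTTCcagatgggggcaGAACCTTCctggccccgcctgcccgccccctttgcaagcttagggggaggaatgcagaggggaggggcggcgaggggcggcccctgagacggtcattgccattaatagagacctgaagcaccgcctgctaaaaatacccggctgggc

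Hsph1 was the gene with 3 facing repeats, TTCTGGAAAGTTC, with its first letter at base 37 when the start is counted as 1. The table gives Hsph1 another start, from which the same letters begin at base 16. The 3-repeat pattern was present in 0.603% and the 2-repeat pattern in 15.1% of 32851 mouse promoters of the same length. Of the 7 genes, 6 had at least 1 promoter with the 2-repeat pattern. This count is per gene, over all its promoters, whereas the shares above are per promoter, so they are unlike measures. Hspa1a and Hspa1b held the same match, GAAGATTC, at base -104, and their promoters were alike at 296 of 300 bases. Hspb1 held matches at -117 and -97, Dnaja1 at -124 and Bag3 at 43. The letters were not found in the 2 Dnajb1 windows. A match is a run of letters and was not read as a bound site.

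The wild-type levels set the 10 genes apart by orders of magnitude. Hsp90ab1 and Hspa8, the constitutive members of the Hsp90 and Hsp70 families, were among the most abundant transcripts: Hsp90ab1 ran from 293 TPM in testes to 2540.2 TPM in MEFs, and Hspa8 from 129.8 TPM in testes to 1399 TPM in MEFs. Together with Hsp90aa1 they made up between 76.0% and 90.7% of the summed TPM of the 10 genes in every group. At the other end stood the stress-inducible Hsp70 genes. Hspa1a had a wild-type mean of 0.290 TPM in liver and at most 20.6 TPM in eyes, and Hspa1b between 2.76 TPM in testes and 44.4 TPM in eyes. In the wild-type brain Hspa8 exceeded the sum of Hspa1a and Hspa1b 112-fold, and in the eyes 8.70-fold.

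Testes differed from the other tissues in which Hsp90 gene led. The wild-type ratio of Hsp90aa1, the inducible form, to Hsp90ab1 was 3.67 in testes. It was between 0.0498 in prostate and 0.677 in eyes elsewhere, so Hsp90ab1 was the more abundant of the pair in all 7 other tissues. Dnajb1, a J-domain protein that activates Hsp70, was likewise highest in testes at 261 TPM and lowest in liver at 17.0 TPM. Hsph1, the Hsp110 exchange factor, was highest in brain at 201 TPM, well above the next level, 50.9 TPM in MEFs. Dnaja1, another J-domain protein, ran from 10.2 TPM in heart to 95.1 TPM in brain. Hspb1, a small heat shock protein, and Bag3, an exchange factor that links Hsp70 to small heat shock proteins, were both highest in MEFs, at 595 and 139 TPM. Bag3 followed in heart at 133 TPM, close to the MEF level, whereas Hspb1 had 166 TPM in heart and 25.4 TPM in testes, the next in order. Since no spread was available for a level, neighbours as close as Bag3 in MEFs and heart or Hspa1b in spleen and brain, at 6.31 and 6.22 TPM, have no established order.

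**Figure D1:**
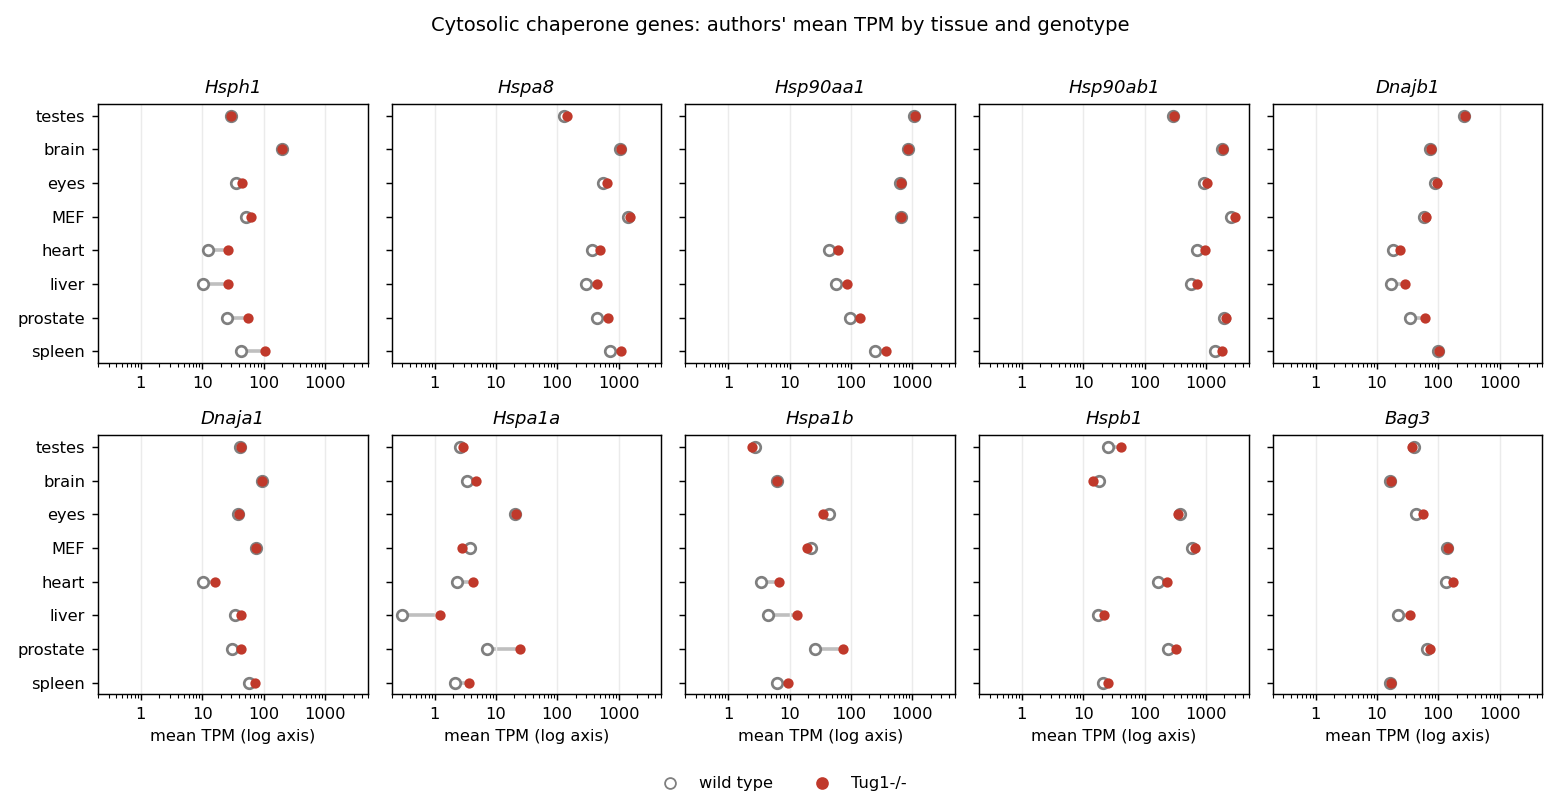
Authors' mean TPM of each of the 10 genes (log axis) in 8 tissues, with wild type as open circles, Tug1-/- as filled circles and a grey line joining them. The circles lie apart for most genes in heart, liver, prostate and spleen. They lie widest for Hsph1, Hspa1a and Hspa1b in heart, liver and prostate, and for Hsph1 and Hspa1a in spleen. Those of Dnajb1 and Bag3 nearly coincide in spleen, and in brain most do, apart from Hspa1a and Hspb1.

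Some of these levels depend on which reads could be placed uniquely, since uniquely mapped reads were counted. Hspa1a and Hspa1b, neighbours on chromosome 17, share sequence: 56.3% of the windows of the Hspa1a transcript that are as long as a sequencing read also occur in another gene, mostly Hspa1b, and 49.7% of those of Hspa1b occur in Hspa1a. For Hspa8 the shared part was 63.3%, for Hsp90aa1 47.3%, for Hspb1 42.5% and for Dnaja1 24.0%, mostly with predicted gene models or, for Hspb1, with Hsp25-ps1. No window was shared for Hsph1, Hsp90ab1, Dnajb1 and Bag3. Reads that fit Hspa1a and Hspa1b equally well would therefore be left out of both, so both levels may be understated. Their sum is given beside each, but it does not restore such reads. The level of a gene with shared windows is uncertain in the same way.

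Comparing genotypes, the sum of the 10 genes was 1488 TPM in wild-type against 2015 TPM in Tug1-/- heart, a ratio of 1.35. It was 1021 and 1426 TPM in liver, a ratio of 1.40, and 2589 and 3630.3 TPM in spleen, also 1.40. In prostate it was 2909 and 3575 TPM, a ratio of 1.23. These 4 organs held the higher sums relative to wild type. In MEFs the ratio was 1.12, in eyes 1.07, in testes 1.05 and in brain 1.02.

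A ratio is given below on the scale log2((Tug1-/- + 0.1)/(wild type + 0.1)) of mean TPM, and a gene was counted as past the limit at 1.5-fold, the size the study set for genes near Tug1. In liver 7 of 10 genes were past the limit on the higher side, against 3.37% of the 12121 genes that passed the filter. In heart 4 of 10 were, against 2.08% of 14004 genes. Prostate and spleen each had 5 of 10, against 5.32% of 15547 and 5.40% of 17260 genes. None of the 10 was past the limit on the lower side in any of the 8 tissues, against 2.65% of all genes in liver, 2.49% in heart, 2.67% in prostate and 5.07% in spleen. Over the 80 pairs of gene and tissue, 22 were past the limit, all higher. Since the genes were picked on these contrasts, nothing is read from these counts against their background.

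The medians moved with the counts. The median log2 ratio of the 10 genes was 0.64 in liver, 0.56 in prostate, 0.50 in spleen and 0.49 in heart, beside all-gene medians of 0.01, 0.04, -0.11 and 0.10. Taken relative to the all-gene median it was 0.63 in liver, 0.61 in spleen, 0.53 in prostate and 0.39 in heart, and all 10 genes stayed above that median in these 4 organs. On this relative scale Dnaja1 in heart and Hspa8 in prostate came under the limit, leaving 3 and 4 genes past it. Nearest the limit among the pairs past it were Hspa8 in prostate at 1.51-fold and Hspa1b in spleen at 1.51-fold. Nearest among those under it were Hsp90aa1 in prostate at 1.45-fold and Hspb1 in heart at 1.42-fold. Among genes of at least 100 TPM in either genotype, 1.04% in heart, 2.49% in liver, 1.96% in prostate and 7.64% in spleen were higher past the limit. That range of levels holds Hspa8 and Hsp90ab1 in all 4 organs, Hspb1 in heart and prostate, Bag3 in heart, Hsp90aa1 in prostate and spleen, and Hsph1 and Dnajb1 in spleen. Hsp90aa1 in prostate and Hsph1 and Dnajb1 in spleen reached it only through their Tug1-/- means, with wild-type means of 96.4, 42.2 and 98.8 TPM. Their place in this range is therefore not separate from their higher Tug1-/- means.

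**Figure D2:**
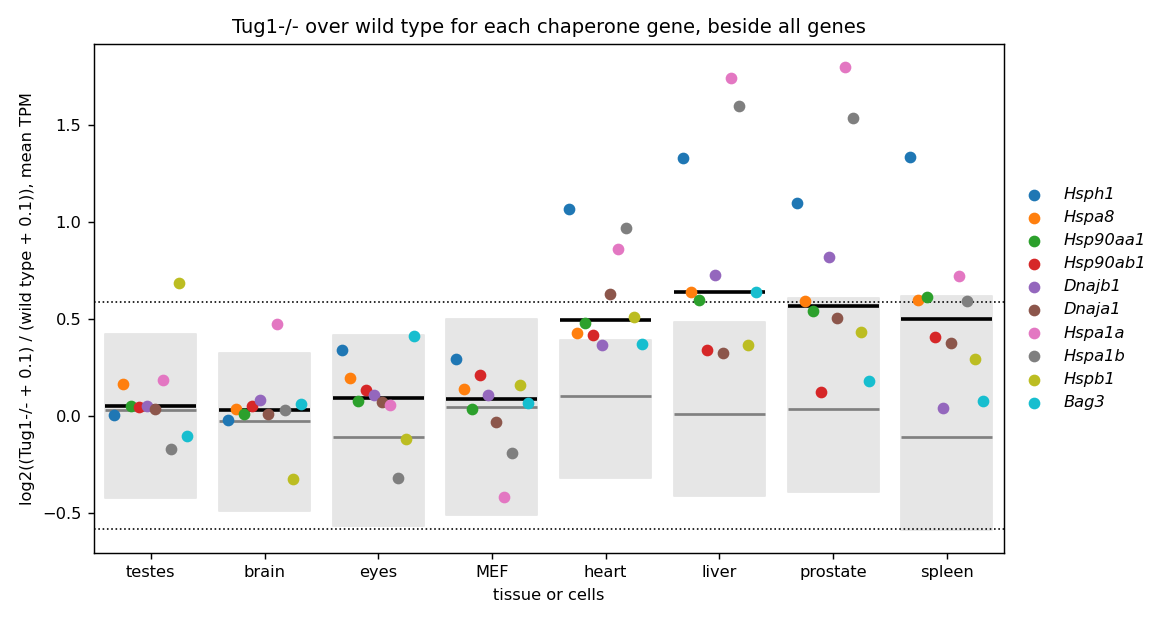
Log2 ratio of Tug1-/- over wild-type mean TPM for each gene (coloured points) by tissue, with the median of the 10 genes in black, the median of all genes in dark grey, the range from their 5th to 95th percentile as a grey block, and dotted lines at 1.5-fold. In heart and liver the black median lies above the grey block, in prostate and spleen just under its upper edge, and in the other tissues near 0.

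Hsph1, which resets the ATP cycle of Hsp70, was past the limit in all 4 organs, as were Hspa1a and Hspa1b, of which both came under it in spleen with a pseudocount of 1 TPM. Its mean was 12.4 TPM in wild-type against 26.0 TPM in Tug1-/- heart, 10.3 and 26.0 TPM in liver, 25.7 and 55.1 TPM in prostate, and 42.2 and 107 TPM in spleen. On the log2 scale these were differences of 1.07, 1.33, 1.10 and 1.33, each above 2-fold. It had the largest ratio of the 10 genes in heart and spleen and stood behind Hspa1a and Hspa1b in liver and prostate. The brain, where its level was highest, showed 201 TPM in wild type against 198 TPM in Tug1-/-, a log2 ratio of -0.02. In testes the means were 29.2 and 29.3 TPM. Eyes, at 35.7 and 45.2 TPM, and MEFs, at 50.9 and 62.3 TPM, lay between, with log2 ratios of 0.34 and 0.29.

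The inducible Hsp70 pair had the widest ratios of the 10 genes in liver and prostate, and Hsph1 a wider one in heart and spleen. Hspa1b was at 4.38 TPM in wild-type against 13.4 TPM in Tug1-/- liver, 25.6 and 74.4 TPM in prostate, 3.43 and 6.81 TPM in heart, and 6.31 and 9.58 TPM in spleen. Its log2 ratios there were 1.60, 1.54, 0.97 and 0.59. Hspa1a was at 0.290 and 1.21 TPM in liver, 7.17 and 25.2 TPM in prostate, 2.31 and 4.28 TPM in heart, and 2.19 and 3.67 TPM in spleen. Its log2 ratios were 1.74, 1.80, 0.86 and 0.72. In liver Hspa1a passed the 1 TPM filter only through its Tug1-/- mean, with a mean normalized count of 39.5 reads over both genotypes, so that its ratio there rests on few reads. With a pseudocount of 1 TPM it was 0.77, behind Hspa1b and Hsph1, and with none it was 2.06. The sum of both genes was 4.67 and 14.7 TPM in liver, 32.8 and 99.6 TPM in prostate, 5.74 and 11.1 TPM in heart, and 8.49 and 13.2 TPM in spleen.

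Outside these organs the pair differed in direction in eyes and testes and shared it in brain and MEFs. In eyes, where both were highest in wild type, Hspa1b stood at 44.4 and 35.5 TPM, a log2 ratio of -0.32, and Hspa1a at 20.6 and 21.4 TPM, a ratio of 0.06, with sums of 65.0 and 56.9 TPM. In MEFs both were lower in Tug1-/-, Hspa1a at 3.80 and 2.82 TPM and Hspa1b at 22.2 and 19.4 TPM, with sums of 26.0 and 22.2 TPM. In brain Hspa1a was at 3.33 and 4.66 TPM, a log2 ratio of 0.47, the largest of the 10 genes there, while Hspa1b was at 6.22 and 6.36 TPM and the sums were 9.55 and 11.02 TPM. In testes Hspa1a was at 2.57 and 2.93 TPM and Hspa1b at 2.76 and 2.44 TPM, and their sum was 5.33 TPM in wild type, 5.36 TPM in Tug1-/- and 4.72 TPM in rescue.

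Hspa8, the constitutive Hsp70, had a smaller ratio than either gene of the inducible pair in liver, prostate and heart, a ratio like that of Hspa1b in spleen, and far larger differences in TPM. It was at 290.4 TPM in wild-type against 453 TPM in Tug1-/- liver, 719 and 1088 TPM in spleen, 445 and 669 TPM in prostate, and 372 and 499.8 TPM in heart. The log2 ratios were 0.64, 0.60, 0.59 and 0.43, the first 3 past the limit. In brain, at 1067 and 1091 TPM, the ratio was 0.03, and in MEFs, at 1399 and 1543 TPM, it was 0.14. Eyes stood at 565 and 646 TPM, with a log2 ratio of 0.19. The gene was above the wild-type mean in all 8 tissues, as were Hsp90aa1, Hsp90ab1 and Dnajb1, although Hsp90aa1 in MEFs was under it once the ratio was taken relative to the all-gene median.

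Of the Hsp90 pair, Hsp90aa1 had the larger ratio in each of the 4 organs. Its mean was 245 TPM in wild-type against 374 TPM in Tug1-/- spleen, 56.2 and 85.1 TPM in liver, 96.4 and 140.1 TPM in prostate, and 43.9 and 61.3 TPM in heart. These were log2 ratios of 0.61, 0.60, 0.54 and 0.48, of which spleen and liver were past the limit. Hsp90ab1 was at 727 and 969.8 TPM in heart, 1382 and 1831 TPM in spleen, 568 and 719 TPM in liver, and 1938 and 2107 TPM in prostate. With log2 ratios of 0.41, 0.41, 0.34 and 0.12 it was past the limit in no tissue. In testes, where Hsp90aa1 was the most abundant of the 10 genes, it stood at 1077 and 1115 TPM, a log2 ratio of 0.05. In brain, eyes and MEFs its log2 ratio was 0.01, 0.08 and 0.04.

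The J-domain genes differed from each other in which organ stood out. Dnajb1, which is strongly heat inducible, was at 34.6 TPM in wild-type against 61.1 TPM in Tug1-/- prostate and at 17.0 and 28.2 TPM in liver, log2 ratios of 0.82 and 0.73. In heart it was at 18.5 and 23.8 TPM, a ratio of 0.37. In spleen, where Hsph1 had a log2 ratio of 1.33, Dnajb1 stood at 98.8 and 102 TPM, a log2 ratio of 0.04. Dnaja1 was past the limit in heart alone, at 10.2 and 15.9 TPM with a log2 ratio of 0.63, and its ratio was 0.51 in prostate, 0.38 in spleen and 0.33 in liver. In the remaining tissues Dnajb1 lay between 0.05 and 0.11, and Dnaja1 between -0.03 and 0.07.

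Bag3, whose protein takes part in clearing damaged filaments in muscle, was past the limit in liver alone, at a wild-type mean of 22.4 TPM and a Tug1-/- mean of 34.9 TPM, a log2 ratio of 0.64. In heart, its main tissue among the 4 organs, it was at 133 and 171 TPM, a ratio of 0.37. In prostate it was at 65.9 and 74.7 TPM and in spleen at 16.1 and 17.0 TPM. Eyes followed liver with 42.8 and 56.9 TPM and a log2 ratio of 0.41. There, 8 of 9 skeletal muscle markers were also higher past the limit, their sum being 7002 TPM in wild type against 12341 TPM in Tug1-/- with none of the 9 at 0, and their part in the Bag3 value was not tested.

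Hspb1, which binds unfolded clients and actin, differed most in another organ. Its one value past the limit was in testes, at 25.4 TPM in wild type against 40.9 TPM in Tug1-/-, a log2 ratio of 0.68. Among all 22378 genes passing the filter in testes, 2.75% were higher past the limit and 3.51% lower, and Hspb1 was the single member among them. In heart it was at 166 and 236 TPM, in prostate at 241 and 325 TPM, in liver at 17.1 and 22.1 TPM, and in spleen at 21.0 and 25.8 TPM, log2 ratios of 0.51, 0.43, 0.37 and 0.29. In brain it was lower in Tug1-/-, at 18.0 and 14.4 TPM, and in eyes it was at 382 and 352 TPM.

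Marker genes of other cell types also lay away from wild type in the Tug1-/- testes. Of the 9 skeletal muscle markers 7 passed the filter and all 7 were higher past the limit, with sums over the 9 of 5.80 TPM in wild type against 50.5 TPM in Tug1-/-. Of the smooth muscle markers 2 of 6 that passed were, with sums over 7 of 112 and 156 TPM. In the rescue testes the skeletal sum was 5.06 TPM and the smooth muscle sum 129 TPM, while Hspb1 was at 45.03 TPM, above its Tug1-/- mean. All 7 macrophage markers were above 0 in Tug1-/-, beside 61.7% of all genes, with none past the limit. In rescue over wild type 2 were past it. The macrophage sums were 112, 148 and 148 TPM in wild type, Tug1-/- and rescue. Of 4 erythroid markers that passed, 3 were lower past the limit, with sums of 44.7, 38.8 and 39.4 TPM. No marker of these lists was at 0. Their part in the Hspb1 value was not tested.

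In the other 3 tissues no member was past the limit in either direction. The background on the higher side was 2.19% of 17729 genes in brain, 3.19% of 19709 genes in eyes and 3.82% of 14824 genes in MEFs, and on the lower side 3.94%, 4.68% and 3.91%. The median log2 ratio of the 10 genes was 0.03 in brain, 0.09 in eyes, 0.09 in MEFs and 0.05 in testes, beside all-gene medians of -0.03, -0.11, 0.05 and 0.03. Relative to the all-gene median, 0.20 in eyes was the largest of these. Of the 10 genes 8 were above 0 in testes, brain and eyes and 7 in MEFs. The shares of all genes above 0 were 61.7% in testes, 39.7% in brain, 27.7% in eyes and 59.6% in MEFs. Above the all-gene median were 7, 9, 8 and 6 of the 10, in the same order.

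In rescue testes the mean was above both other means for 7 genes, below both for 2 and between them for Hspa1a, at 2.57 TPM in wild type, 2.93 TPM in Tug1-/- and 2.81 TPM in rescue. For Hspb1 the 3 means were 25.4, 40.9 and 45.03 TPM, and for Hspa8 129.8, 145 and 149 TPM. Hsph1 stood at 29.2, 29.3 and 31.4 TPM and Hsp90ab1 at 293, 303 and 322 TPM. Hspa1b was at 2.76, 2.44 and 1.91 TPM and Bag3 at 40.8, 38.0 and 37.7 TPM, the 2 genes with the lowest mean in rescue. Rescue over Tug1-/- had no member past the limit, against a background of 1.42% higher and 3.22% lower. Rescue over wild type had Hspb1 alone, at a log2 ratio of 0.82, against 2.79% higher and 5.14% lower. These comparisons share libraries with the first, and the values are given side by side for that reason.

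**Figure D3:**
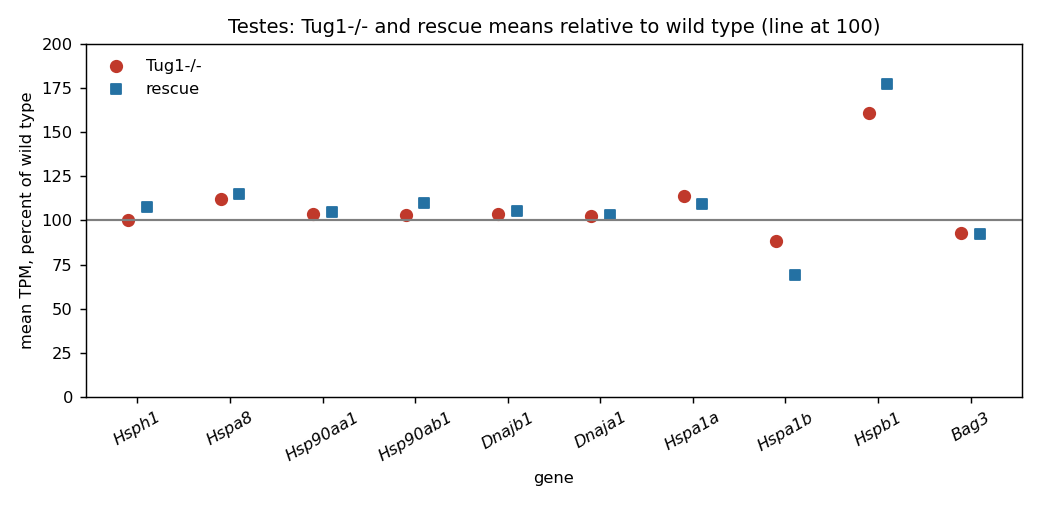
Mean TPM of each gene in Tug1-/- (circles) and rescue testes (squares) as a percent of the wild-type mean, which is the line at 100. Hspb1 stands at 161% and 177%, and Hspa1b is lowest at 88.3% and 69.1%.

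The wider chaperone network was described from lists of named genes that held none of the 10. In 4 lists of cytosolic chaperones and cochaperones together, 1 of 43 genes that passed the filter in heart, 1 of 39 in liver, 2 of 42 in prostate and 9 of 43 in spleen were higher past the limit, and none was lower. The shares of all genes were 2.08%, 3.37%, 5.32% and 5.40% in the same order. In brain the count was 1 of 42 beside 2.19% of all genes, in eyes 1 of 44 beside 3.19%, in MEFs 0 of 42 beside 3.82% and in testes 2 of 44 beside 2.75%. These lists were chosen with earlier results of these data known, so nothing is read from the counts against their background.

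Of these 4 cytosolic lists, that of the Hsp90 cochaperones had the highest median in each of the 4 organs. Hsp90 cochaperones load and time the Hsp90 cycle, but the 14 genes listed also included Pphln1, which encodes no such cochaperone. Their median log2 ratio was 0.38 in heart, where 14 of 14 were above 0 beside 74.8% of all genes. It was 0.39 in spleen, where 5 of 14 were past the limit beside 5.40% of all genes, 0.25 in prostate and 0.22 in liver. Fkbp5, an immunophilin that binds Hsp90 in steroid receptor complexes and is itself induced by glucocorticoids, was the one chaperone gene of these lists past the limit in at least 3 tissues. It was at 4.83 TPM in wild-type against 14.1 TPM in Tug1-/- heart, 6.78 and 16.1 TPM in liver, 20.4 and 36.4 TPM in prostate, and 28.9 and 55.3 TPM in spleen, the same 4 organs. Bag2, another exchange cofactor of Hsp70, was at 4.73 and 11.3 TPM in spleen.

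The list of further Hsp70 proteins and exchange factors had medians of 0.18 in heart, 0.13 in prostate, 0.06 in liver and 0.05 in spleen. The J-domain list had 0.19, 0.06, 0.10 and -0.02 in the same order. The small heat shock proteins other than Hspb1 had 0.13, 0.16, 0.08 and -0.22, with 2 of 7 above 0 in spleen beside 29.8% of all genes. Their median was 0.49 in eyes and -0.14 in MEFs. TRiC, the ring-shaped chaperonin that folds actin and tubulin, had no subunit past the limit in any comparison, with medians between 0.00 and 0.23, and the mitochondrial chaperones had none either. Chaperones of the endoplasmic reticulum had 1 of 12 past the limit, in liver, with medians of 0.26 in liver, 0.30 in spleen and -0.16 in brain. The list of heat shock factors, which also holds Hsbp1, whose product binds and restrains HSF1, had none past the limit, and Hsf1 ran from -0.17 in brain to 0.25 in heart.

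**Figure D4:**
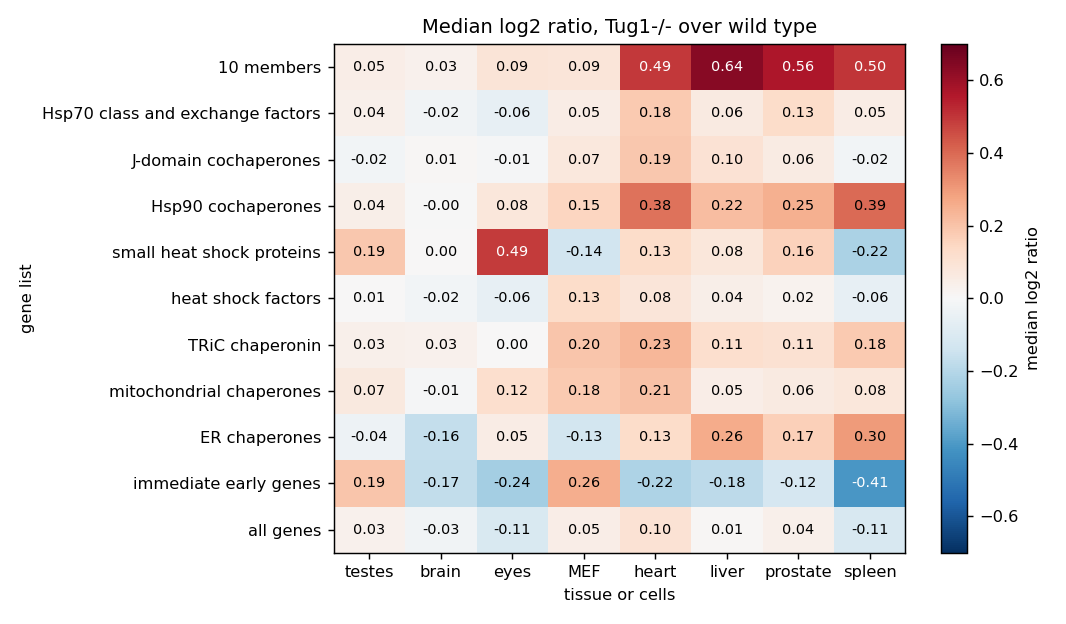
Median log2 ratio of Tug1-/- over wild-type mean TPM for the 10 members, 9 other gene lists and all genes that passed the filter, by tissue, as colour and number. The members' row holds 0.49 to 0.64 in heart, liver, prostate and spleen, where the Hsp90 cochaperones hold 0.22 to 0.39 and the immediate early genes -0.41 to -0.12.

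Some immediate early genes, cold-inducible genes and cell type markers also lay away from their wild-type means in these organs, and their part in the chaperone values was not tested. The immediate early genes respond quickly to many stimuli. Their median log2 ratio was -0.41 in spleen, -0.22 in heart, -0.18 in liver and -0.12 in prostate. In spleen 0 of 15 were above 0, beside 29.8% of all genes. In eyes and brain, where no member was past the limit, their median was -0.24 and -0.17. There 2 of 15 were above 0 in each, beside 27.7% of all genes in eyes and 39.7% in brain. In MEFs and testes the median was 0.26 and 0.19. Fos was at 14.9 TPM in wild-type against 6.45 TPM in Tug1-/- heart, 1.83 and 1.11 TPM in liver, and 12.4 and 5.19 TPM in spleen, and Nr4a1 was at 18.7 and 2.90 TPM in liver. Cirbp, a cold-inducible RNA-binding protein, was at 114 and 71.1 TPM in spleen, with log2 ratios of -0.69 there, -0.56 in liver, -0.43 in prostate, -0.39 in eyes and -0.06 in heart, and only the value in spleen was past the limit. Rbm3, the other cold-inducible gene, had log2 ratios of -0.24 in spleen, -0.15 in prostate, -0.06 in heart and 0.07 in liver.

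In spleen all 6 erythroid markers were higher past the limit, with sums of 20763 TPM in wild type against 37649 TPM in Tug1-/-, and the B and T cell markers had a median log2 ratio of -0.34. In prostate 3 of 4 erythroid markers that passed and 5 of 7 macrophage markers were higher, with sums of 149 and 272 TPM and of 252 and 394 TPM. In liver 2 of 7 macrophage markers were, with sums of 274 and 415 TPM, and 2 of 4 smooth muscle markers that passed, with a median log2 ratio of 0.58 and sums of 7.63 and 11.9 TPM. In heart no erythroid marker was past the limit and 7 of 9 skeletal muscle markers were lower, with a median log2 ratio of -4.20, for example Tnnt3 at 31.5 and 0.763 TPM. The sums over these 9, which include markers that did not share this, were 1316 and 1380 TPM, with 2 of the 9 listed at 0 in Tug1-/-. Eyes, where no member was past the limit, also had all 4 erythroid markers that passed higher, with sums of 617 and 1893 TPM. No marker of the erythroid and macrophage lists was at 0 in these organs.

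Within the set, the tissue pattern was most alike for Hsp90aa1, Hsph1 and Hspa8, whose log2 ratios over the 8 tissues correlated with the median of the members at a Pearson r of 0.984, 0.973 and 0.972. These genes are part of that median. Bag3 and Hspb1 were least alike among the 8 members of at least 5 TPM in every tissue, at 0.560 and 0.467. Among 5569 such genes, those outside the set with the highest r were Top1, Ubfd1, Chordc1, B3galnt2 and Hyou1, at 0.985, 0.958, 0.956, 0.948 and 0.938. The 8 points of each r share the Tug1-/- allele and the means of the same libraries. Genes outside the set were named for their high r, so their likeness in pattern to the members follows from that choice. Chordc1, an Hsp90-binding protein, also belongs to the list of Hsp90 cochaperones described above. It had log2 ratios of 0.73 in prostate, 0.66 in spleen, 0.57 in liver and 0.44 in heart, of the size seen in Hsp90aa1. Top1, DNA topoisomerase I, ran lower, between 0.26 and 0.39 in these organs and between -0.07 and 0.04 in the others, and Hyou1, a chaperone of the endoplasmic reticulum related to Hsph1, stood at 0.47 in liver.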

How the data were processed

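Libraries were made from poly(A) RNA with a TruSeq kit. Per the labels and the methods of the study, reads were processed with CASAVA 1.8.2, aligned to the mouse genome (GRCm38, mm10) with STAR, counted per gene with featureCounts over uniquely mapped reads, and compared with DESeq2. Whether counting used strand is not given in the sources used here. The authors deposited the mean of each group in TPM, per gene and tissue, and, outside testes, a mean normalized count over both genotypes, a signal on the scale of DESeq2 size factors that is used only as a guide to depth. The tables also hold the authors' own comparisons (log2 fold change, its standard error, test statistic, p-value, adjusted p-value and a significance flag), which were not used. No column of single samples was at hand, so group means carry no error, depth per sample is unknown and no test was run.

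Ratios were computed in Python 3.11.15 with pandas 2.3.3 and numpy 2.4.6 as log2((second mean + 0.1)/(first mean + 0.1)), for genes of at least 1 TPM in either group, and counted at 1.5-fold. This understates the ratio of low genes. The computing steps were tested on simulated tables. The 10 members and the gene lists were chosen with earlier results of these data known. Genes are named by a rule: the members, Tug1, list genes past 1.5-fold the same way in at least 3 tissues or among the 3 largest per comparison, and the 5 genes most like the members in pattern. Alternatives were other pseudocounts, filters and fold limits, centring on the median of all genes, and leaving out or summing Hspa1a and Hspa1b. The share past the limit among genes of at least 100 TPM was added after the data were seen. Transcript windows came from GENCODE, with the length of a sequencing read, and promoters from RefSeq. The F1 hybrid samples, 6 of the 52 listed, were not analysed here.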

Additional observations from a re-analysis of the deposited data

How the results depend on the processing

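No value past the limit changed sign under the alternatives tried. With a limit of 2-fold, the members counted as higher were 1 in heart, 3 in liver, 3 in prostate, 1 in spleen, 0 in testes and 0 in rescue over wild type, beside 0.621%, 1.09%, 2.23%, 2.16%, 0.894% and 0.862% of all genes. With a limit of 0.32 on the log2 scale in place of 0.58 they were 10 in heart, 8 in prostate, 2 in eyes and 1 in brain, beside 7.59%, 12.2%, 6.68% and 5.03% of all genes. At this limit 1 member was counted as lower in each of brain, eyes, MEFs, rescue over Tug1-/- and rescue over wild type, beside 7.88%, 14.9%, 9.71%, 7.62% and 9.69% of all genes. The other counts at this limit, among them those of higher members in liver and spleen, stayed within 1.5 times of the main ones and are not listed. Without Hspa1a and Hspa1b the count was 2 in heart, 3 in prostate and 3 in spleen, of 8 members, beside 2.06%, 5.31% and 5.39% of all genes, and the median log2 ratio in spleen was 0.39. A pseudocount of 1 TPM gave 3 in spleen beside 4.15%, with Hspa1a and Hspa1b under the limit, and moved Hspa1a in liver from 1.74 to 0.77. Centring on the median of all genes moved the median of the members to 0.20 in eyes, 0.39 in heart and 0.61 in spleen. It also turned the sign of 3 values near 0, Hsp90aa1 in MEFs from 0.04 to -0.01, Hsph1 in testes from 0.01 to -0.03 and Hsph1 in brain from -0.022 to 0.0033. The other alternatives (no pseudocount, no filter, a filter of 5 TPM, and Hspa1a and Hspa1b as 1 sum) left each count within 1.5 times and each median within 0.1 on the log2 scale.

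No paired analysis was possible because the columns used hold only group means, and for the same reason no sample was left out in turn. The spread of levels between mice, the share of 1 mouse in a mean and the depth of a library are not known here, and prostate rests on 2 Tug1-/- samples. Low members, Hspa1a before all, rest on few reads.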
